A study of Mus musculus with 35 samples.

Results

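The genes described here, Vegfa, Pdgfb, Tgfb1, Igf1, Hbegf, Thbs1, Adm and Inhba, encode growth and angiogenic factors that cells secrete and a matrix protein that regulates them. They were chosen by name, as the Ensembl identifiers of the deposited expression tables that map to these symbols, and make up 8 of 47069 genes. RNA-seq was performed on bone marrow-derived macrophages (BMDMs) of the C57BL/6 strain, which are primary cells grown out of mouse marrow in medium with 30% L929 conditioned medium, a source of macrophage growth factor. Wild-type cultures and cultures labelled AMPKa1-/- were kept for 24 h in one of 6 conditions. These were vehicle (DMSO), the synthetic glucocorticoid dexamethasone (Dex) at 100 nM, the bacterial cell wall component LPS at 100 ng/ml, damage-associated molecular patterns (DAMPs) at 1 µg/ml, LPS with Dex, and DAMPs with Dex. The 35 libraries fell into 12 groups of 3, except that the wild-type LPS group had 2, numbered 2 and 3. The mice were of both sexes and 8 to 15 weeks old, a range stated for the experiments together and not for each genotype. The sources used here do not give the molecules that made up the DAMPs or the way the AMPKa1-/- allele was made.

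Library totals were between 15837203 and 31955298 fragments, and a single fragment on a gene 1 kb long added between 0.0313 and 0.0631 FPKM, the deposited unit, which scales fragments by gene length and library size. Each library held transcripts of all 7 macrophage markers, with Lyz2, the lysozyme gene of myeloid cells, between 10344 and 35906 FPKM, Csf1r, the receptor for macrophage growth factor, between 197 and 684 FPKM, and the lowest values for Fcgr1 (4.39 FPKM) and Itgam (9.12 FPKM). Dex and LPS left their known marks. Tsc22d3, a direct glucocorticoid target, was at 53.5 FPKM in wild-type vehicle and 709 FPKM in wild-type Dex libraries on average, and Tnf, a cytokine gene induced by LPS, was at 10.5 FPKM with vehicle, 393 FPKM with LPS and 24.4 FPKM with LPS + Dex. With DAMPs, Tnf was at 8.15 FPKM, and 0 of 5 LPS response genes and 0 of 4 glucocorticoid response genes were called in either genotype, beside 2.01% of all genes in wild-type and 4.13% in AMPKa1-/- labelled cultures, so these short lists say little about DAMPs. Of these LPS response genes, Il6, Nos2 and Ptgs2 were tested only because of the LPS and LPS + Dex libraries. In the other libraries they averaged 0.0754, 0.0330 and 0.282 FPKM. The genotype label left no mark on its own gene. Prkaa1, which encodes AMPKa1, was between 8.59 and 26.1 FPKM in the 17 wild-type libraries and between 9.05 and 24.0 FPKM in the 18 libraries labelled AMPKa1-/-, so the groups overlapped over nearly their whole range. A transcript that keeps most of its exons can still be counted, and this check therefore cannot tell an inactive allele from an intact one.

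Macrophages are a main source of growth factors in tissue repair. VEGF-A drives the growth of blood vessels, PDGF-BB recruits fibroblasts and pericytes, TGF-beta 1 and activin A signal through SMAD proteins to matrix production and immune restraint, and IGF-1 supports growth and regeneration. Inflammatory signals and glucocorticoids are both known to shift this output, which is why each factor was followed over the 6 conditions in both genotypes.

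Upstream sequence was available for 5 of the 8 genes (RefSeq, GRCm38.p6), and 4 stretches of 250 bases are shown, from genes that rose and a gene that fell with LPS. Inhba (strand +, chr13:16011601-16011850), Adm (strand +, chr7:110627407-110627656) and Vegfa (strand -, chr17:46032378-46032627) are genes that rose with LPS in at least the wild-type cultures, and Tgfb1 (strand +, chr7:25686752-25687001) is a gene that fell. Each is written 5′ to 3′ and ends just before the RefSeq start, and capitals mark matches to the motifs searched on both strands.
Inhba: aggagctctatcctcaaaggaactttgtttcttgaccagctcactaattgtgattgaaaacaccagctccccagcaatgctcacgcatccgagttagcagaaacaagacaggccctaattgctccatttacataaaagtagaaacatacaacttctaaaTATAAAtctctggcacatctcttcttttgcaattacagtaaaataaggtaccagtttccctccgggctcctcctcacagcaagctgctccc
Adm: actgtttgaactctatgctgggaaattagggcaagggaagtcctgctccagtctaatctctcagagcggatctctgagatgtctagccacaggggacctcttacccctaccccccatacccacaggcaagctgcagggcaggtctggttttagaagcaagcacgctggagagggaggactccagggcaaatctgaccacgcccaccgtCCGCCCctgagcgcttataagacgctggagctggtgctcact
Vegfa: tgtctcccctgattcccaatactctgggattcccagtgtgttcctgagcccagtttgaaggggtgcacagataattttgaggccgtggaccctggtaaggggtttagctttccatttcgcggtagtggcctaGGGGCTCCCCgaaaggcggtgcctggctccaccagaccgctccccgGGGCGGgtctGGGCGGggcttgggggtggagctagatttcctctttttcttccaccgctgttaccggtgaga
Tgfb1: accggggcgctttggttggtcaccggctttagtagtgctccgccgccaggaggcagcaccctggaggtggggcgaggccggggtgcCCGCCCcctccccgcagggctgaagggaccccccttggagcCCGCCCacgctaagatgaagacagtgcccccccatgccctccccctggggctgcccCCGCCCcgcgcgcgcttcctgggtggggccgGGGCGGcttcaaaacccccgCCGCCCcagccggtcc
The stretches differed in base composition, from 43.2% G + C for Inhba to 56.8% for Adm, 59.2% for Vegfa and 75.2% for Tgfb1. In Inhba the capitals are a TATAAA match 91 to 86 bases before the start, a motif present in 12.4% of 32841 mouse promoters of the same length. In Adm they are 1 GGGCGG match read on the other strand, 42 to 37 bases before the start, and in Tgfb1 they are 5 such matches on either strand. GGGCGG occurred in 32.7% of promoters. Vegfa held GGGCGG 72 to 67 and 62 to 57 bases before the start, and a match to the NF-kB motif 118 to 109 bases before it, which 3.90% of promoters hold. The letters TGANTCA (6.75% of promoters), ACGTG (16.6%) and AGAACA (16.1%) were not found in these 4 windows. The fifth window, of Igf1 (strand +, chr10:87860861-87861110, 52.8% G + C), is not printed because it lies inside the annotated gene. It held 1 match to TGANTCA, 37 to 31 bases before the RefSeq start, and none to the other motifs. A match is a description of the letters and was not tested as a binding site.

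With vehicle, Igf1 was the most abundant factor, at 653 ± 57.4 FPKM (SD, n = 3) in wild-type and 722 ± 52.7 FPKM in AMPKa1-/- labelled cultures, followed by Tgfb1 at 294 ± 21.5 and 325 ± 71.9 FPKM and Pdgfb at 62.7 ± 3.17 and 73.6 ± 10.8 FPKM. Vegfa was at 3.35 ± 1.01 and 1.39 ± 0.297 FPKM, and Thbs1, Hbegf, Adm and Inhba had group means below 1 FPKM. These levels depend on gene length. The lengths that turn the deposited values into whole fragments were shorter than the annotated exonic lengths, for example 1964 against 9904 bases for Igf1 and 1237 against 5042 bases for Tgfb1, so the levels compared between genes depend on the length used. The test across genes covered the 11354 genes with a mean of at least 1 FPKM over the 35 libraries, and 7 of the 8 factors were among them. Adm and Inhba passed this filter only through the LPS libraries: without those, their means were 0.492 and 0.103 FPKM. Hbegf, at a mean of 0.226 FPKM, was not tested.

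**Figure D1:**
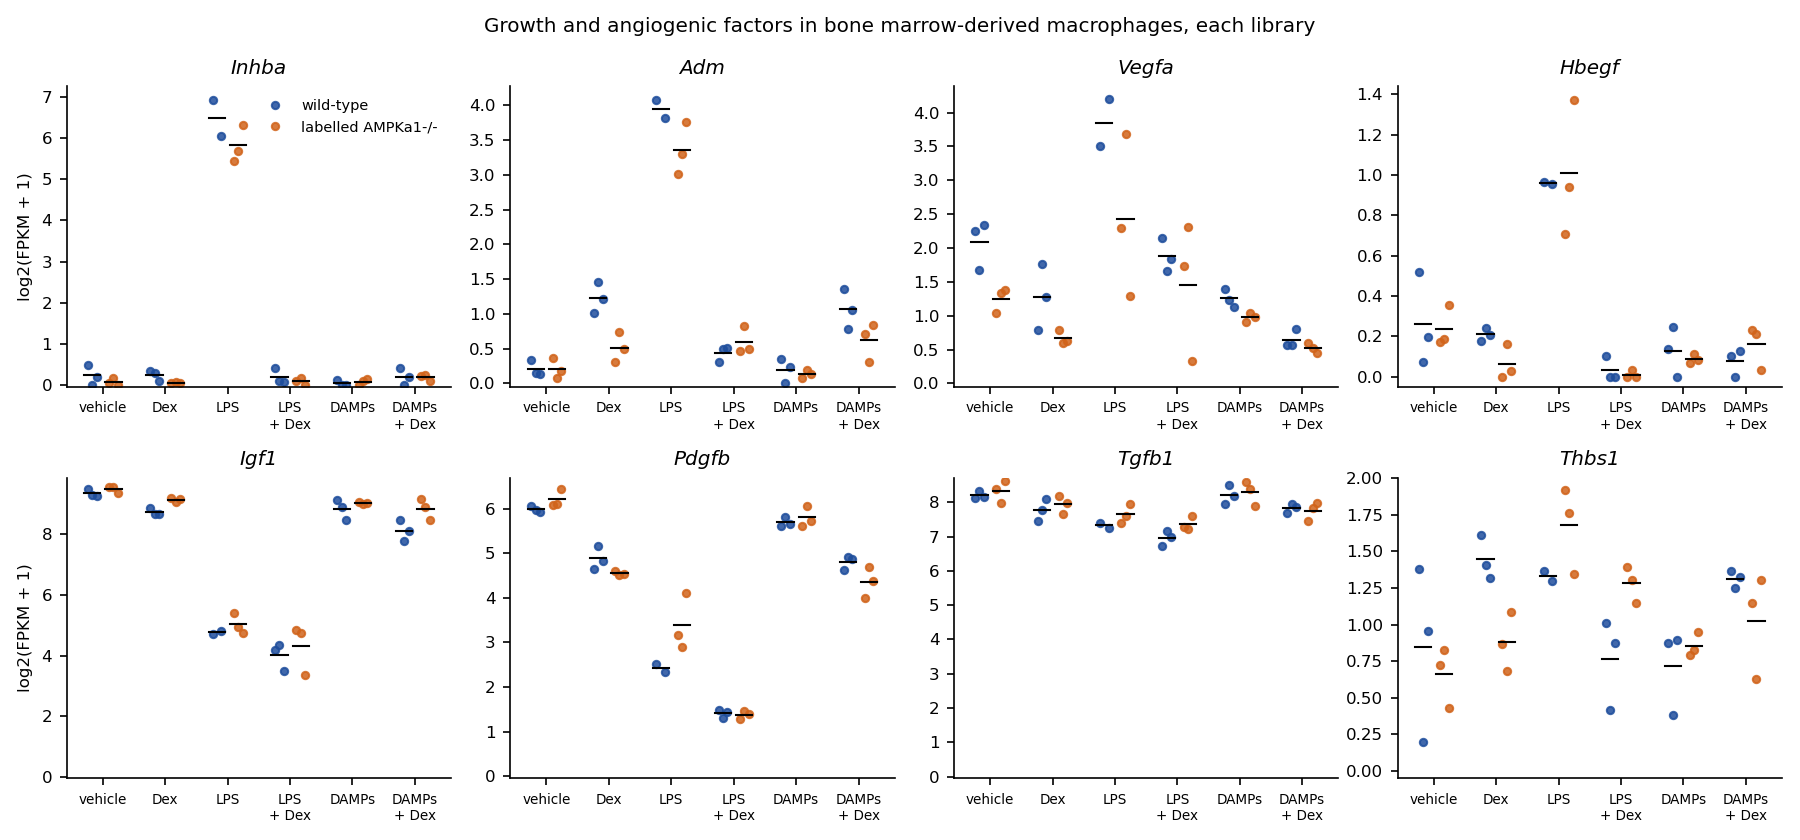
Level of the 8 factors as log2(FPKM + 1) in every library (points) with the group mean (bar), by treatment along the horizontal axis, wild-type in blue and AMPKa1-/- labelled in orange, with vertical axes that differ between panels. Inhba and Adm stood high in the LPS libraries, Igf1 and Pdgfb stood low in the LPS and LPS + Dex libraries, and Vegfa varied between replicates, from 1.45 to 11.8 FPKM among the AMPKa1-/- labelled LPS libraries.

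Inhba (chr13:16011851-16031621, strand +) encodes the beta A subunit that pairs with itself to form activin A, and it changed most. Its level was 121 and 65.8 FPKM in the 2 wild-type LPS libraries and 42.8, 50.7 and 79.5 FPKM in the 3 labelled AMPKa1-/-. In the 30 libraries without LPS or with LPS + Dex it did not exceed 0.406 FPKM. The LPS libraries thus lay far above every other library in both genotypes, with 1493 to 4468 fragments on the gene each, against 0 to 16 elsewhere. On the scale of log2(FPKM + 1), which understates the change of genes near 0, LPS raised Inhba by 6.27 ± 0.21 (SE; adjusted p = 2e-19) in wild-type and 5.76 ± 0.19 (adjusted p = 5.5e-20) in AMPKa1-/- labelled cultures. With Dex added to LPS it changed by -6.31 ± 0.21 (adjusted p = 5.2e-19) and by -5.74 ± 0.19 (adjusted p = 1.8e-19). After 24 h, LPS + Dex libraries held 0.0501 to 0.326 FPKM in wild-type and 0 to 0.125 FPKM in AMPKa1-/- labelled cultures, which overlapped the vehicle libraries (0 to 0.406 and 0 to 0.125 FPKM). In such bulk samples, a smaller number of expressing cells and less RNA per cell cannot be told apart.

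Adm (chr7:110627661-110629820, strand +), the gene of the vasodilating and angiogenic peptide adrenomedullin, had 2 responses. LPS libraries were at 15.8 and 13.05 FPKM in wild-type and 7.03, 8.80 and 12.6 FPKM in AMPKa1-/- labelled cultures, against 0.0955 to 0.259 and 0.0521 to 0.285 FPKM with vehicle. This was a rise of 3.74 ± 0.20 (adjusted p = 7.5e-15) and 3.15 ± 0.18 (adjusted p = 1.7e-14) on the log2(FPKM + 1) scale. LPS + Dex libraries were at 0.237 to 0.416 and 0.384 to 0.778 FPKM, with differences from LPS of -3.51 ± 0.20 (adjusted p = 7.4e-14) and -2.75 ± 0.18 (adjusted p = 1e-12). In wild-type cultures these overlapped the vehicle libraries, and in AMPKa1-/- labelled cultures they stood above them, 3.34-fold between group means (0.39 ± 0.18, adjusted p = 0.066), a difference called after median centring (adjusted p = 0.0031), after quantile normalization (0.0013), with 0.1 added in place of 1 (0.015) and in the voom fit on fragments (0.047). Without LPS, Dex had the opposite sign. Wild-type Dex libraries held 1.02, 1.75 and 1.31 FPKM, all above the wild-type vehicle libraries, and Adm rose by 1.02 ± 0.18 (adjusted p = 9.3e-05). The libraries labelled AMPKa1-/- held 0.241, 0.674 and 0.404 FPKM with Dex and overlapped their vehicle libraries (0.31 ± 0.18, adjusted p = 0.22). These values rest on few fragments, 17 to 34 per wild-type Dex library and 5 to 15 per AMPKa1-/- labelled Dex library.

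Vegfa (chr17:46016993-46032369, strand -), the gene of the main vascular growth factor, rose with LPS in wild-type cultures from 3.76, 2.201 and 4.08 FPKM to 10.3 and 17.4 FPKM, and the groups did not overlap (1.76 ± 0.45, adjusted p = 0.0014). LPS + Dex libraries were at 3.43, 2.16 and 2.57 FPKM, below both LPS libraries (-1.97 ± 0.45, adjusted p = 0.00092) and overlapping the vehicle libraries, 1 of them just under the lowest of these. In AMPKa1-/- labelled cultures the LPS libraries were spread over 3.93, 11.8 and 1.45 FPKM and overlapped the vehicle libraries (1.05, 1.53 and 1.59 FPKM). The rise passed the test (1.17 ± 0.40, adjusted p = 0.012) but rested on replicate 2: without it the change was 0.54 (adjusted p = 0.19). The LPS + Dex libraries labelled AMPKa1-/- were spread as well, at 2.32, 3.95 and 0.260 FPKM, and the difference from LPS was -0.97 ± 0.40 (adjusted p = 0.057). Replicate numbers paired the libraries of this comparison, and with the number as a block the same difference had an adjusted p of 0.039. It was also called without LPS replicate 3 (-1.53, adjusted p = 0.0025) or LPS + Dex replicate 2 (-1.39, adjusted p = 0.010). Within both of these groups replicate 2 was the highest and replicate 3 the lowest.

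Hbegf (chromosome 18, 36504927 to 36515805, strand -) encodes heparin-binding EGF-like growth factor, a ligand of the EGF receptor. It was at 0.951 and 0.938 FPKM in the wild-type LPS libraries and 0.633, 0.922 and 1.59 FPKM in those labelled AMPKa1-/-, with 33 to 75 fragments each. Every other library was at or below 0.435 FPKM, and the LPS + Dex libraries held 0 to 5 fragments. Below the filter it has no result in the main test. When the filter was dropped, the LPS difference was 0.70 ± 0.12 (adjusted p = 6.6e-05) in wild-type and 0.77 ± 0.11 (adjusted p = 2.8e-06) in AMPKa1-/- labelled cultures, and that of LPS + Dex against LPS was -0.92 ± 0.12 (adjusted p = 2.5e-06) and -0.997 ± 0.11 (adjusted p = 1.1e-07). Like Inhba, Hbegf was highest with LPS and near 0 with LPS + Dex, but its LPS + Dex groups were the lowest of the 12, and those labelled AMPKa1-/- (0 to 0.0229 FPKM) lay below their vehicle libraries (0.126 to 0.280 FPKM).

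The 3 abundant factors went the other way. Igf1 (chr10:87858265-87937042, strand +) encodes insulin-like growth factor 1, which macrophages release during muscle and skin repair. It fell with LPS from 719, 624 and 616 FPKM to 25.4 and 27.2 FPKM in wild-type cultures, 24.8-fold between group means, and from 754, 750 and 661 FPKM to 41.7, 29.8 and 25.7 FPKM in AMPKa1-/- labelled cultures, 22.3-fold. No LPS library came near a vehicle library, and the log2 differences were -4.58 ± 0.30 (adjusted p = 3.6e-13) and -4.46 ± 0.27 (adjusted p = 4.1e-14) on the log2 scale. Dex did not bring Igf1 back. LPS + Dex libraries held 17.2, 19.5 and 10.2 FPKM in wild-type and 27.7, 25.9 and 9.32 FPKM in AMPKa1-/- labelled cultures. The difference from LPS was -0.76 ± 0.30 (adjusted p = 0.051) in wild-type cultures, called without LPS + Dex replicate 1 (-0.85, adjusted p = 0.048) or 2 (-0.93, adjusted p = 0.031). It was also called when only wild-type libraries were fitted (adjusted p = 0.028) or with replicate numbers blocked (-0.87, adjusted p = 0.0076). Adding 0.1 in place of 1 (adjusted p = 0.048) and a filter at 5 FPKM (0.047) gave the call as well. The difference was -0.71 ± 0.27 (adjusted p = 0.037) in AMPKa1-/- labelled cultures, where the groups overlapped and the call was lost without LPS + Dex replicate 3 (-0.24, adjusted p = 0.46), LPS replicate 1 (-0.52, adjusted p = 0.19) or LPS replicate 2 (-0.76, adjusted p = 0.055). That call was also lost without a filter (adjusted p = 0.085), after quantile normalization (0.059) and without moderation (0.053). Fitting only the AMPKa1-/- labelled libraries (adjusted p = 0.058) or only these groups (0.19) lost it too.

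Pdgfb (chr15:79995874-80014977, strand -), the gene of the PDGF B chain, a mitogen for fibroblasts and pericytes, was lowered by both agents. Vehicle libraries were at 66.1, 62.2 and 59.9 FPKM in wild-type and 67.1, 67.5 and 86.1 FPKM in AMPKa1-/- labelled cultures. LPS brought it to 4.76 and 4.06 FPKM (-3.56 ± 0.23, adjusted p = 1.7e-13) and to 8.04, 6.41 and 16.2 FPKM (-2.82 ± 0.20, adjusted p = 1.6e-12). LPS + Dex libraries were lower again, at 1.81, 1.47 and 1.72 FPKM (adjusted p = 0.00074 against LPS) and 1.44, 1.73 and 1.61 FPKM (adjusted p = 3.7e-09). Dex alone left 24.2, 35.1 and 27.5 FPKM in wild-type (-1.10 ± 0.20, adjusted p = 0.00013) and 23.5, 21.8 and 22.4 FPKM in AMPKa1-/- labelled cultures (-1.65 ± 0.20, adjusted p = 3.7e-07). Each of these steps separated the groups without overlap. Pdgfb was the only tested factor whose fall with Dex was called in all 3 backgrounds (vehicle, LPS and DAMPs) in both genotypes. The estimates for Vegfa, Igf1 and Tgfb1 were negative in each as well, but not all of them were called.

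Tgfb1 (chr7:25687002-25705077, strand +), the gene of TGF-beta 1, moved least among the abundant factors. It went from 277, 318 and 286 FPKM with vehicle to 169 and 152 FPKM with LPS in wild-type cultures (-0.87 ± 0.22, adjusted p = 0.0017), a change of 1.83-fold between group means. AMPKa1-/- labelled libraries were at 330, 250 and 394 FPKM with vehicle and 167, 194 and 244 FPKM with LPS (-0.68 ± 0.20, adjusted p = 0.0044). The medians of all genes also moved with LPS, to -0.19 and -0.30, and after libraries were centred on a common median the Tgfb1 difference in AMPKa1-/- labelled cultures was -0.40 (adjusted p = 0.12). Dex on top of LPS gave differences of -0.38 ± 0.22 (adjusted p = 0.20) and -0.27 ± 0.20 (adjusted p = 0.31).

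Thbs1 (chr2:118111876-118127133, strand +) encodes thrombospondin 1, a matrix protein that restrains angiogenesis and activates latent TGF-beta. It was low and uneven, with wild-type vehicle libraries at 1.60, 0.146 and 0.939 FPKM. LPS libraries were at 1.58 and 1.46 FPKM in wild-type (0.49 ± 0.25, adjusted p = 0.10), and the difference was called after median centring (0.64, adjusted p = 0.026) or without vehicle replicate 1 (0.76, adjusted p = 0.012). In AMPKa1-/- labelled cultures they were at 2.78, 2.40 and 1.55 FPKM, above the vehicle libraries at 0.655, 0.772 and 0.350 FPKM, and Thbs1 rose by 1.02 ± 0.22 (adjusted p = 0.00028). The summed fibroblast markers moved with this rise, from 1.71 to 3.14 FPKM in the vehicle libraries to 9.70 to 14.5 FPKM in the LPS libraries labelled AMPKa1-/-. Wild-type Dex libraries held 2.06, 1.66 and 1.496 FPKM. That rise passed the test (0.60 ± 0.22, adjusted p = 0.041), but the groups overlapped, and without vehicle replicate 2, the library at 0.146 FPKM, the change was 0.28 (adjusted p = 0.38). In the vehicle libraries Thbs1 had the order of the summed fibroblast markers, which were at 18.5, 1.43 and 9.93 FPKM, and these were at 12.1 to 24.7 FPKM with Dex. The part of such cells in either rise was not tested. The Dex call was also lost without a filter (adjusted p = 0.081), after median centring (0.066), and when only the wild-type libraries (0.089) or only these groups (0.13) were fitted. It was lost too without vehicle replicate 3 (0.66, adjusted p = 0.056), Dex replicate 1 (0.52, adjusted p = 0.13) or Dex replicate 2 (0.62, adjusted p = 0.083). Wild-type LPS + Dex libraries, at 0.334 to 1.01 FPKM, lay below the LPS libraries, 2.09-fold between group means. This was not called, except after quantile normalization (-0.58, adjusted p = 0.048) or with replicate numbers blocked (-0.68, adjusted p = 0.018). Fibroblast markers summed to 3.30 to 11.4 FPKM there and 18.0 to 18.6 FPKM with LPS, and their part was not tested. In AMPKa1-/- labelled cultures the LPS + Dex and LPS libraries overlapped.

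Counted together, 3 of the 7 tested factors rose and 3 fell with LPS in wild-type cultures, beside 55.7% of all 11354 genes called in either direction. In AMPKa1-/- labelled cultures 4 rose and 3 fell, beside 64.3% of genes. The median change of the 7 factors was 0.49 and 1.02, against -0.19 and -0.30 over all genes. This sign came from Adm and Inhba, which had to be high with LPS to be tested: without them the median of the other 5 was -0.87 and -0.68, with 1 rise and 3 falls in wild-type and 2 rises and 3 falls in AMPKa1-/- labelled cultures. Macrophage markers moved with LPS too: 2 of 7 rose and 4 fell in each genotype. Their sum, mostly Lyz2, was 13978 and 17230 FPKM in wild-type LPS libraries against 20960 to 26807 FPKM with vehicle. In libraries labelled AMPKa1-/- it was 12948 to 22884 FPKM against 21744 to 32440 FPKM. The part of this in the changes of the factors was not tested. With LPS + Dex against LPS, 4 of 7 fell in each genotype and 0 rose, beside 34.1% and 37.7% of genes called. Vegfa, Pdgfb, Adm and Inhba fell in wild-type cultures, and Pdgfb, Igf1, Adm and Inhba in AMPKa1-/- labelled cultures. The medians of the factors were -1.02 and -0.97, against -0.03 and 0.01 over all genes. Without Adm and Inhba, 2 of 5 fell in each genotype, and the medians were -0.76 and -0.71. Macrophage markers moved with Dex on LPS too, where 3 of 7 rose and 1 fell in each genotype. Their sum, again mostly Lyz2, was 27941 to 31867 FPKM in wild-type and 27126 to 39154 FPKM in AMPKa1-/- labelled LPS + Dex libraries. The part of this in the falls was not tested. With so few genes, these counts describe the factors and no more.

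**Figure D2:**
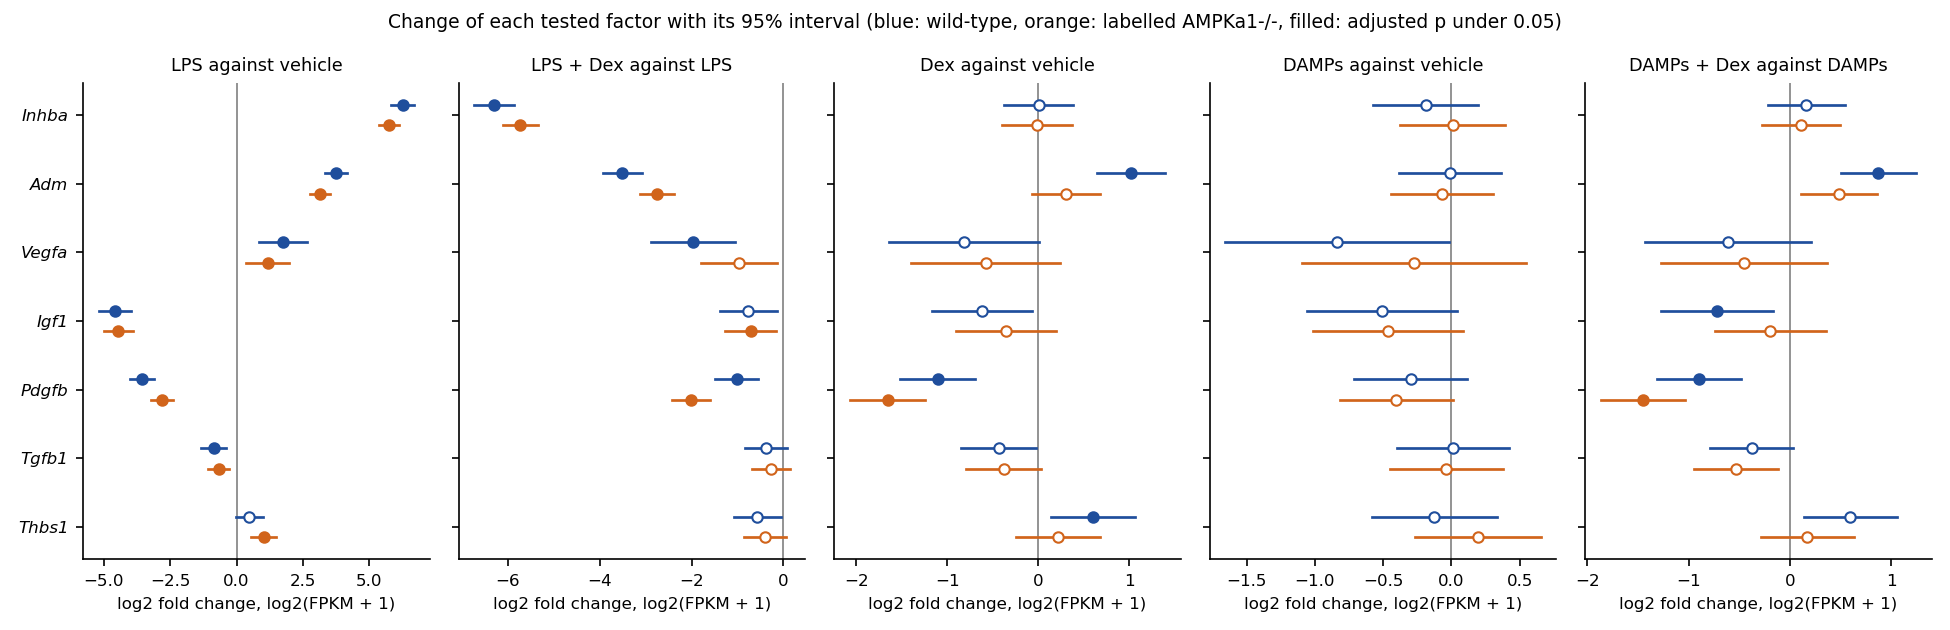
Change of the 7 tested factors in 5 comparisons (panels), as the log2 fold change on the log2(FPKM + 1) scale along each horizontal axis, with the limma estimate (point) and its 95% interval (line); wild-type in blue, AMPKa1-/- labelled in orange, filled where the adjusted p over all genes was under 0.05, and horizontal scales differ between panels. Inhba and Adm moved right with LPS and left when Dex was added to it, and no point is filled for DAMPs against vehicle.

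The estimated effect of Dex differed between backgrounds for some factors. The difference between its effect on LPS and its effect on vehicle was called for 3 of 7 factors in wild-type cultures, beside 32.0% of all genes, and for 2 of 7 in AMPKa1-/- labelled cultures, beside 28.4%. Inhba and Adm made up 2 of the calls in each genotype and were tested only because of the LPS libraries, and without them 1 of 5 and 0 of 5 were called. For Inhba it was -6.31 ± 0.28 in wild-type and -5.72 ± 0.26 in AMPKa1-/- labelled cultures. Its vehicle libraries held only 0 to 13 and 0 to 4 fragments, so Dex had next to nothing to lower there. These values therefore restate the fall of Inhba on LPS and do not show that the action of Dex differed. For Adm the differences were -4.53 ± 0.27 (adjusted p = 7.9e-13) and -3.06 ± 0.26 (adjusted p = 5.1e-10). In wild-type cultures a rise on vehicle and a fall on LPS were called, and in AMPKa1-/- labelled cultures only the fall was called. Adm vehicle libraries held only 2 to 5 and 1 to 7 fragments, so Dex had little to lower there either. Without a called rise on vehicle, the value in AMPKa1-/- labelled cultures mostly restates the fall on LPS. Thbs1 differed in wild-type cultures by -1.17 ± 0.34 (adjusted p = 0.0088), a call not kept when the 4 groups were fitted alone (adjusted p = 0.057). Summed fibroblast markers took a like course, on average 9.95 FPKM with vehicle, 17.4 with Dex, 18.3 with LPS and 8.32 with LPS + Dex. Their part in this difference was not tested. For Pdgfb the differences were 0.09 (95% interval -0.53 to 0.71) and -0.36 (-0.95 to 0.23), intervals that leave room for a difference of either sign. On vehicle, Dex raised 2 and lowered 1 of the 7 in wild-type cultures, beside 30.9% of genes called, and lowered 1, Pdgfb, in AMPKa1-/- labelled cultures, beside 27.9%. Igf1 stood at 470, 401 and 407 FPKM in the wild-type Dex libraries, all below the vehicle libraries and 1.53-fold lower between group means. The difference of -0.62 ± 0.27 was not called (adjusted p = 0.082), but it was after median centring (-0.70, adjusted p = 0.030) or when only these groups were fitted (adjusted p = 0.0057). In AMPKa1-/- labelled cultures Igf1 was at 589, 534 and 571 FPKM with Dex, again below the vehicle libraries (-0.35 ± 0.27, adjusted p = 0.36, or 0.039 when only these groups were fitted). Vegfa libraries overlapped between Dex and vehicle in wild-type cultures (-0.82 ± 0.40, adjusted p = 0.12), a difference called when only the wild-type libraries (adjusted p = 0.027) or only these groups (0.049) were fitted. In AMPKa1-/- labelled cultures the 3 Dex libraries, at 0.726, 0.517 and 0.548 FPKM, were below the vehicle libraries, but the difference of -0.58 ± 0.40 had an adjusted p of 0.30.

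**Figure D3:**
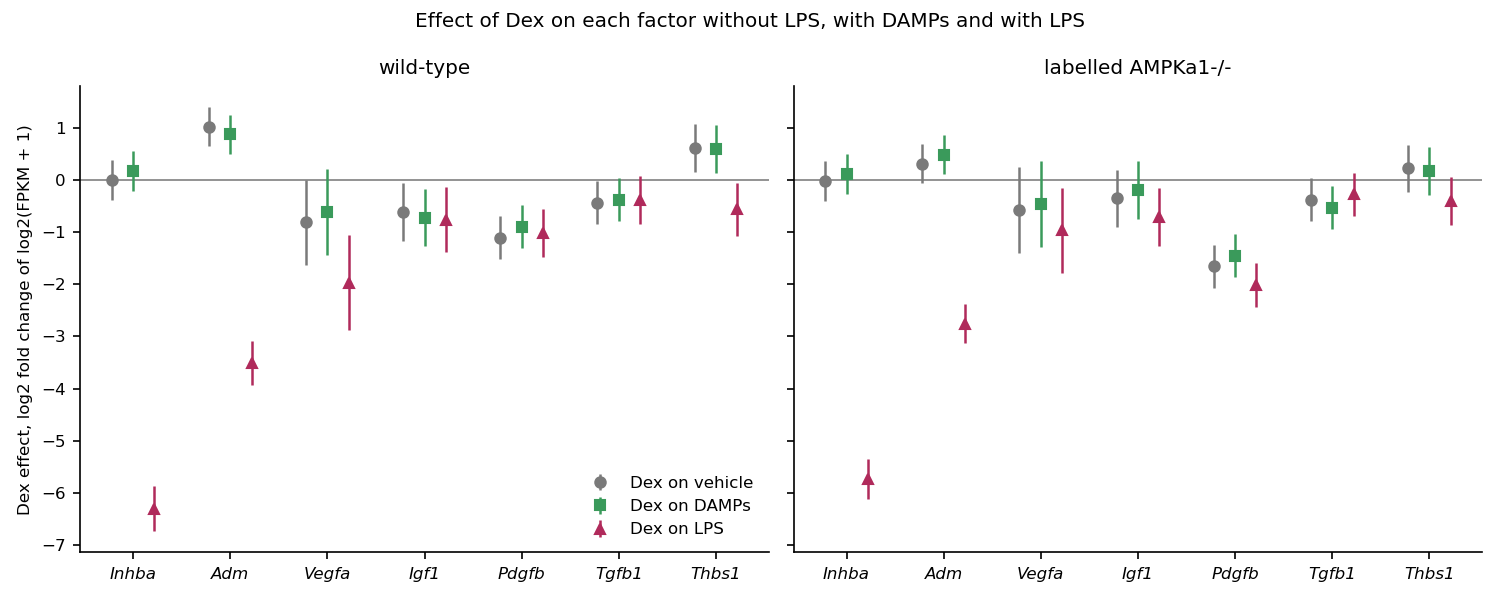
Effect of Dex on each of the 7 tested factors, given on vehicle, on DAMPs and on LPS, as the log2 fold change on the log2(FPKM + 1) scale with its 95% interval, in wild-type (left) and AMPKa1-/- labelled (right) cultures. The estimates for Adm lay above 0 on vehicle and DAMPs and far below 0 on LPS. Those for Pdgfb, Vegfa, Igf1 and Tgfb1 lay below 0 in the 3 backgrounds, and of these only Pdgfb was called in each.

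DAMPs changed none of the 7 tested factors by the limma test in either genotype, beside 2.01% of genes called in wild-type and 4.13% in AMPKa1-/- labelled cultures. These shares rested on single libraries, since the 228 wild-type calls became 26 without DAMPs replicate 3 and 372 without replicate 2, and the 469 calls in AMPKa1-/- labelled cultures became 267 without vehicle replicate 2. The voom fit on fragments also called 0 factors. At an unadjusted p under 0.05, 1 factor differed, Vegfa in wild-type cultures (-0.84 ± 0.40, unadjusted p = 0.046, adjusted p = 0.49). Its libraries were at 1.63, 1.36 and 1.19 FPKM with DAMPs, below the 3 vehicle libraries. Igf1 and Pdgfb libraries with DAMPs also lay below all vehicle libraries in both genotypes, 1.40-fold and 1.38-fold lower for Igf1 (adjusted p = 0.60 and 0.50) and 1.23-fold and 1.33-fold lower for Pdgfb (adjusted p = 0.83 and 0.39). The intervals left room for other changes: for Igf1 they ran from -1.06 to 0.04 in wild-type and from -1.01 to 0.09 in AMPKa1-/- labelled cultures. Dex added to DAMPs was set against DAMPs alone, and its effect there was not tested against that on vehicle. It raised Adm from 0.273, 0 and 0.176 FPKM to 1.57, 0.721 and 1.07 FPKM in wild-type cultures (0.87 ± 0.18, adjusted p = 0.00056). In AMPKa1-/- labelled cultures Adm was at 0.629, 0.241 and 0.786 FPKM, above the DAMPs libraries at 0.0528, 0.148 and 0.0996 FPKM, with an adjusted p of 0.053 (0.48 ± 0.18), or 0.019 without DAMPs + Dex replicate 2. Pdgfb fell in both genotypes, with differences of -0.90 ± 0.20 (adjusted p = 0.0012) and -1.45 ± 0.20 (adjusted p = 2.7e-06). Igf1 went from 563, 480 and 354 FPKM to 350, 218 and 277 FPKM in wild-type cultures (-0.72 ± 0.27, adjusted p = 0.049), a call lost without DAMPs + Dex replicate 2 (-0.55, adjusted p = 0.22) or 3 (-0.73, adjusted p = 0.095) and without DAMPs replicate 1 (-0.57, adjusted p = 0.19) or 2 (-0.69, adjusted p = 0.12). Thbs1 stood higher in the wild-type DAMPs + Dex libraries, at 1.37 to 1.58 FPKM, than in the DAMPs libraries, at 0.304 to 0.863 FPKM (0.59 ± 0.22, adjusted p = 0.053), and was called after median centring (adjusted p = 0.044) or quantile normalization (0.021). The summed fibroblast markers were higher there as well, at 9.55 to 18.6 FPKM against 1.45 to 8.41 FPKM, and their part was not tested. Vegfa libraries with DAMPs + Dex lay below those with DAMPs in both genotypes, 2.46-fold and 2.23-fold between group means (adjusted p = 0.30 and 0.44). For Tgfb1 the difference in AMPKa1-/- labelled cultures was -0.53 ± 0.20 (adjusted p = 0.051), called without DAMPs replicate 3 (-0.73, adjusted p = 0.013) or DAMPs + Dex replicate 3 (-0.64, adjusted p = 0.041). In all, 1 factor rose and 2 fell in wild-type cultures, beside 24.3% of genes called, and 1 fell in AMPKa1-/- labelled cultures, beside 25.3%.

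Set against vehicle, the combined treatments gave another order. LPS + Dex left Pdgfb 37.6-fold lower in wild-type and 46.1-fold lower in AMPKa1-/- labelled cultures and Igf1 41.7-fold and 34.4-fold lower between group means. Tgfb1 changed with LPS + Dex by -1.25 ± 0.20 (adjusted p = 6.3e-06) and by -0.95 ± 0.20 (adjusted p = 2e-04). Those 3 were the factors that fell in each genotype, and Thbs1 rose in AMPKa1-/- labelled cultures (0.62 ± 0.22, adjusted p = 0.020, lost without vehicle replicate 3 at an adjusted p of 0.092 or without LPS + Dex replicate 1 at 0.064), beside 54.2% and 57.4% of genes called. The summed fibroblast markers moved with that rise of Thbs1, at 3.27 to 8.28 FPKM with LPS + Dex against 1.71 to 3.14 FPKM with vehicle, and their part in it was not tested. For Vegfa, LPS + Dex and vehicle libraries overlapped in both genotypes. DAMPs + Dex against vehicle gave 1 rise and 3 falls in wild-type cultures, beside 24.9% of genes, and 2 falls in AMPKa1-/- labelled cultures, beside 26.1%. Among the latter, the fall of Tgfb1 (-0.57 ± 0.20, adjusted p = 0.035), was lost without vehicle replicate 1 (adjusted p = 0.092) or 3 (0.20) and without DAMPs + Dex replicate 1 (0.19) or 2 (0.057). Vegfa was among the falls in wild-type cultures, at 0.475, 0.475 and 0.750 FPKM (-1.45 ± 0.40, adjusted p = 0.0075). Both comparisons share the vehicle libraries with those of LPS, Dex and DAMPs alone.

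Between genotypes, few differences of the factors passed the test, and several groups stood apart without passing it. With vehicle, 0 of 7 passed the limma test, beside 0.432% of genes, although Vegfa was at 3.76, 2.201 and 4.08 FPKM in wild-type and 1.05, 1.53 and 1.59 FPKM in AMPKa1-/- labelled libraries, which did not overlap (2.40-fold lower between group means, unadjusted p = 0.045, adjusted p = 0.78). Pdgfb also stood apart there, 1.17-fold higher in the libraries labelled AMPKa1-/-. With LPS, Pdgfb was higher in the libraries labelled AMPKa1-/- (0.96 ± 0.23, 2.32-fold between group means, adjusted p = 0.036), the 1 call of 7 beside 0.766% of genes. It was lost without wild-type LPS replicate 2 (1.05, adjusted p = 0.11) or 3 (0.87, adjusted p = 0.45) and without AMPKa1-/- labelled LPS replicate 1 (1.06, adjusted p = 0.068) or 3 (0.60, adjusted p = 0.13). The share of all genes moved with single libraries too: 87 genes were called, and 9 to 130 without 1 library. Also with LPS, the differences of AMPKa1-/- labelled from wild-type cultures were -1.42 ± 0.45 for Vegfa (adjusted p = 0.17), -0.67 ± 0.21 for Inhba (adjusted p = 0.17) and -0.59 ± 0.20 for Adm (adjusted p = 0.22). Vegfa was called without AMPKa1-/- labelled LPS replicate 2 (-2.05, adjusted p = 0.0068) and Inhba without replicate 3 (-0.92, adjusted p = 0.017). Both wild-type LPS libraries lay above the 3 others for Adm, while the groups overlapped for Vegfa and Inhba. With Dex, Adm was lower in AMPKa1-/- labelled cultures (-0.71 ± 0.18, 3.09-fold between group means, adjusted p = 0.011), the 1 call of 7 beside 26.5% of genes. This share was far above that in the other conditions, and it rested on single libraries: 3008 genes were called with the 6 Dex libraries, 304 without wild-type replicate 2, 308 without AMPKa1-/- labelled replicate 2 and 1662 without wild-type replicate 1. Without wild-type replicate 2, Adm had a difference of -0.60 (adjusted p = 0.088). Also with Dex, the libraries labelled AMPKa1-/- lay below the wild-type ones for Vegfa (2.54-fold, adjusted p = 0.25), Thbs1 (2.04-fold, adjusted p = 0.058) and Pdgfb (1.28-fold, adjusted p = 0.21) and above them for Igf1 (1.33-fold, adjusted p = 0.24). None of these was called, but Igf1 was when only these groups were fitted (adjusted p = 0.034) and Thbs1 without AMPKa1-/- labelled Dex replicate 3 (-0.67, adjusted p = 0.047). Inhba (4.81-fold, not called) and Hbegf (3.38-fold, not tested) also lay lower in the libraries labelled AMPKa1-/-, on at most 8 fragments per library. With LPS + Dex, DAMPs and DAMPs + Dex, limma called 0 of 7 factors, beside 0.669%, 0.731% and 1.06% of genes, and 2, 0 and 3 factors had an unadjusted p under 0.05. Libraries labelled AMPKa1-/- lay above the wild-type ones for Thbs1 with LPS + Dex (1.98-fold, adjusted p = 0.50) and for Igf1 with DAMPs + Dex (1.65-fold, adjusted p = 0.29). They also lay above them for Tgfb1 with LPS + Dex (1.34-fold) and below them for Vegfa with DAMPs (1.44-fold). The voom fit on fragments also called 0 in these 3 conditions and with vehicle.

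The 5 responses themselves were compared between genotypes by an interaction term. For the responses to Dex, LPS, LPS + Dex over LPS, DAMPs and DAMPs + Dex over DAMPs, limma called 0 of 7 factors, beside 0.00% of genes in each of the 5. At an unadjusted p under 0.05 the numbers of genes were 2441, 514, 311, 66 and 234, and the numbers of factors 1, 2, 2, 0 and 0. The voom fit called 0 factors. Among the factors, the response of Pdgfb to Dex on LPS differed by -0.998 (95% interval -1.62 to -0.38, unadjusted p = 0.0028, adjusted p = 1) and that of Adm by 0.75 (0.19 to 1.31, unadjusted p = 0.01, adjusted p = 1). The LPS responses of Pdgfb and Adm differed by 0.74 (0.12 to 1.36, unadjusted p = 0.021, adjusted p = 0.95) and -0.59 (-1.15 to -0.03, unadjusted p = 0.04, adjusted p = 0.95). The Dex response of Adm on vehicle differed by -0.71 (-1.24 to -0.18, unadjusted p = 0.01, adjusted p = 0.19). The call of a factor in one genotype and not in the other, as for Thbs1 with LPS, was thus not shown to be a difference between them.

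Ordered by level over the 12 groups, neighbouring groups mostly overlapped. For Inhba, 10 of the 11 pairs of neighbours overlapped, and the pair that stood apart was AMPKa1-/- labelled LPS over wild-type vehicle. Vegfa and Tgfb1 had 1 separated pair each, Igf1 3, Adm 2 and Pdgfb 5, while the 11 pairs overlapped for Thbs1. Across the 12 group means of log2(FPKM + 1), which share libraries and normalisation and are given as a description, Adm and Inhba had a Pearson r of 0.967, Pdgfb and Tgfb1 0.956, and Pdgfb and Igf1 0.941. Adm and Inhba were tested only because of the LPS libraries and were far lower elsewhere. Their values of r, here and below, therefore rest largely on the LPS group means. The genes closest to a factor were Cish, Nrg1 and Car2 for Inhba (r = 0.999, 0.999 and 0.998) and Snx8, Anxa7 and Spg21 for Igf1 (0.993, 0.993 and 0.989). Pdgfb was closest to Cmtm3, Vat1 and Map3k20 (0.986, 0.984 and 0.981), Tgfb1 to Arpin, Lmo2 and Ccdc120 (0.978, 0.965 and 0.962) and Adm to Ktn1, Brcc3 and Ankrd24 (0.979, 0.974 and 0.974). Vegfa was closest to Gm16754, Ifnar2 and Eml4 (0.962, 0.959 and 0.956). For Thbs1 the highest values, those of Abhd5, Pim3 and Gphn, were 0.857, 0.855 and 0.849.

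Among 31 related ligands of the same families, 7 were tested, and 1 rose and 5 fell with LPS in each genotype, beside 55.7% of all genes called in wild-type and 64.3% in AMPKa1-/- labelled cultures. The medians were -1.20 and -1.51 against -0.19 and -0.30 over all genes. In both genotypes 2 fell with Dex (30.9% and 27.9% of all genes called), 2 rose and 1 fell with Dex on LPS (34.1% and 37.7%), and 1 fell with Dex on DAMPs (24.3% and 25.3%). The rise with LPS was that of Edn1, the gene of the vasoconstrictor endothelin 1, from 0.0551 to 41.2 FPKM in wild-type and 0.0429 to 38.7 FPKM in AMPKa1-/- labelled cultures on average (5.28 ± 0.24 and 5.20 ± 0.21). Edn1 passed the filter only through the LPS and LPS + Dex libraries, with a mean of 0.0564 FPKM in the others, and of the 6 ligands without it 0 rose and 5 fell with LPS, and 1 rose and 1 fell with Dex on LPS, in each genotype. In the other pathway lists this held for Pdgfrb, Smad6 and Egln3, 1 in each of 3 lists and named for that reason, so 1 of the rises with LPS in each of these lists was of a gene that the filter favoured. Unlike Inhba and Adm, Edn1 rose further with LPS + Dex, to 87.3 and 66.3 FPKM (1.08 ± 0.24, adjusted p = 0.00061, and 0.74 ± 0.21, adjusted p = 0.0059). Vegfb, a VEGF relative linked to lipid uptake, fell from 24.1 to 4.67 FPKM with LPS in wild-type cultures and rose to 11.3 FPKM with LPS + Dex. Angptl4, a lipase inhibitor, fell with LPS (-2.97 and -4.07), with Dex (-1.32 and -1.27) and with Dex on DAMPs (-0.95 and -1.53). Pdgfa, the partner chain of Pdgfb, fell with Dex (-0.62 and -0.82) and with Dex on LPS (-1.06 and -1.17).

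Of 29 receptors, 20 were tested, and with LPS 4 rose and 8 fell in wild-type and 4 rose and 10 fell in AMPKa1-/- labelled cultures, beside 55.7% and 64.3% of all genes called. The medians were -0.40 and -0.40, or -0.43 and -0.62 without Pdgfrb. Kdr, the main signalling receptor for VEGF-A, went from 1.80 to 48.9 FPKM with LPS in wild-type cultures and to 0.205 FPKM with LPS + Dex (4.19 ± 0.32 and -5.38 ± 0.32), with a like course in AMPKa1-/- labelled cultures (3.76 and -4.82). Nrp1, a VEGF co-receptor, fell with LPS (-3.41 and -3.18) and was the 1 receptor called with DAMPs in both genotypes (-0.84 and -0.99). Cd36, a scavenger receptor that binds thrombospondin 1, fell with Dex (-2.25 and -2.41), LPS (-2.39 and -2.79), Dex on LPS (-2.97 and -2.57) and Dex on DAMPs (-2.12 and -1.74). Ramp1, which forms receptors for peptides of the adrenomedullin family, fell with Dex (-1.67 and -1.54) and Dex on DAMPs (-1.04 and -1.97), and Kdr also fell with Dex on DAMPs (-1.46 and -1.58). Tgfbr2, the TGF-beta type II receptor, fell with Dex (-1.03 and -1.67) and Eng, a TGF-beta co-receptor, with Dex on LPS (-1.81 and -2.04). With Dex alone, 6 receptors rose and 6 fell in wild-type cultures, while 1 rose and 10 fell in AMPKa1-/- labelled cultures, beside 30.9% and 27.9% of all genes called. This difference in balance was not tested as such, and the balance of all genes moved with the scaling: rises made up 51.6% of the calls with Dex in wild-type and 42.8% in AMPKa1-/- labelled cultures, 45.0% and 51.9% after median centring, and 49.9% and 53.0% after quantile normalization. With Dex on LPS 2 rose and 7 fell, and 2 rose and 8 fell, beside 34.1% and 37.7%, or 2 and 6, and 2 and 7, without Pdgfrb. With Dex on DAMPs 1 rose and 7 fell, and 3 rose and 8 fell, beside 24.3% and 25.3%.

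Of 24 genes that process, store or inhibit these factors, 11 were tested. With LPS 2 rose and 3 fell in wild-type and 2 rose and 6 fell in AMPKa1-/- labelled cultures, beside 55.7% and 64.3% of all genes called. With Dex 3 rose and 3 fell in wild-type cultures, while 0 rose and 5 fell in AMPKa1-/- labelled cultures, beside 30.9% and 27.9%, which was likewise not tested as a difference. With Dex on LPS 3 rose and 3 fell, and 4 rose and 3 fell, beside 34.1% and 37.7%. The medians with LPS were -0.38 and -0.46, near those of all genes. Igfbp4, an inhibitory IGF-binding protein, fell with Dex (-1.65 and -0.78), Dex on LPS (-2.26 and -2.09) and Dex on DAMPs (-1.17 and -1.06). Nrros, which tethers latent TGF-beta 1 to macrophages, fell with LPS (-1.35 and -1.63), Dex (-0.78 and -0.66) and Dex on DAMPs (-0.77 and -0.73), and Ltbp3, a latent TGF-beta-binding protein, fell with LPS (-1.20 and -1.30). Igfbp7, another IGF-binding protein, rose with LPS (1.34 and 1.93), Adam9, a membrane protease, rose with Dex on LPS (1.32 and 1.15) and on DAMPs (0.53 and 0.51), and Itgav, an integrin subunit that can activate TGF-beta, fell with Dex on LPS (-1.30 and -1.26). With DAMPs alone 0 of these were called in either genotype, and likewise 0 of the ligands and 0 of the SMAD genes, while 1 receptor, Nrp1, and 1 hypoxia gene, Slc2a1, fell. These counts stand beside 2.01% and 4.13% of all genes called, near which they lie.

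Of 13 SMAD signalling genes and targets, 12 were tested. With LPS 5 rose and 5 fell in wild-type and 4 rose and 5 fell in AMPKa1-/- labelled cultures, beside 55.7% and 64.3% of all genes called, with medians of 0.05 and -0.15, or -0.25 and -0.38 without Smad6. Dex on LPS raised 1 and lowered 6 in wild-type and raised 3 and lowered 6 in AMPKa1-/- labelled cultures, beside 34.1% and 37.7%, or lowered 5 in each without Smad6. Dex alone raised 4 and lowered 0 in wild-type cultures but raised 1 and lowered 4 in AMPKa1-/- labelled cultures, beside 30.9% and 27.9%. Dex on DAMPs raised 5 and lowered 2, and raised 2 and lowered 1, beside 24.3% and 25.3%. These differences in balance between the genotypes were not tested as such. The inhibitory genes Smad6 (2.68 and 2.58) and Skil (2.28 and 1.75) rose with LPS, and Skil fell with Dex on DAMPs (-1.39 and -1.12). Tgfbi, the gene of a matrix protein induced by TGF-beta, rose with Dex (1.28 and 1.47) and with Dex on DAMPs (1.64 and 1.14), where Smad4 rose as well (0.69 and 0.65), and it fell with Dex on LPS (-1.42 and -1.55), as did the SMAD co-repressor gene Tgif1 (-1.38 and -1.09). All 13 genes of the hypoxia factor HIF-1 and its targets, the family to which Vegfa and Adm also belong, were tested. With LPS 9 rose and 1 fell in wild-type and 8 rose and 2 fell in AMPKa1-/- labelled cultures, beside 55.7% and 64.3% of all genes called, with medians of 1.16 and 0.90. Without Egln3, 8 rose and 1 fell in wild-type and 7 rose and 2 fell in AMPKa1-/- labelled cultures, with medians of 1.12 and 0.94. Among the rises were Hif1a itself (2.48 and 1.96) and the glucose transporter gene Slc2a1 (1.90 and 1.68), and Ndrg1 fell (-3.71 and -4.17). Hif1a (-1.07 and -0.79) and Slc2a1 (-1.40 and -1.02) fell again with Dex on LPS, where 1 of the 13 rose and 3 fell in wild-type and 2 rose and 3 fell in AMPKa1-/- labelled cultures (34.1% and 37.7% of all genes called), and Slc2a1 fell with DAMPs (-0.64 and -0.52). Without Egln3, 1 rose and 3 fell with Dex on LPS in each genotype. With Dex alone 1 rose and 5 fell in each genotype, beside 30.9% and 27.9% of all genes called. Ddit4, also a direct glucocorticoid target, rose from 2.28 to 521 FPKM in wild-type cultures (7.31 and 6.84), while Pdk1 (-0.95 and -1.16) and Pgk1 (-1.12 and -0.65), both of glucose metabolism, fell. Ddit4 rose with Dex on LPS (3.24 and 2.87) and on DAMPs (7.91 and 7.02), and Dex on DAMPs, which raised 2 and lowered 3 of these genes in wild-type and raised 2 and lowered 2 in AMPKa1-/- labelled cultures (24.3% and 25.3% of all genes called), also raised the mitophagy gene Bnip3 (0.95 and 0.93) and lowered Ldha, a lactate dehydrogenase gene (-0.63 and -0.58).

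**Figure D4:**
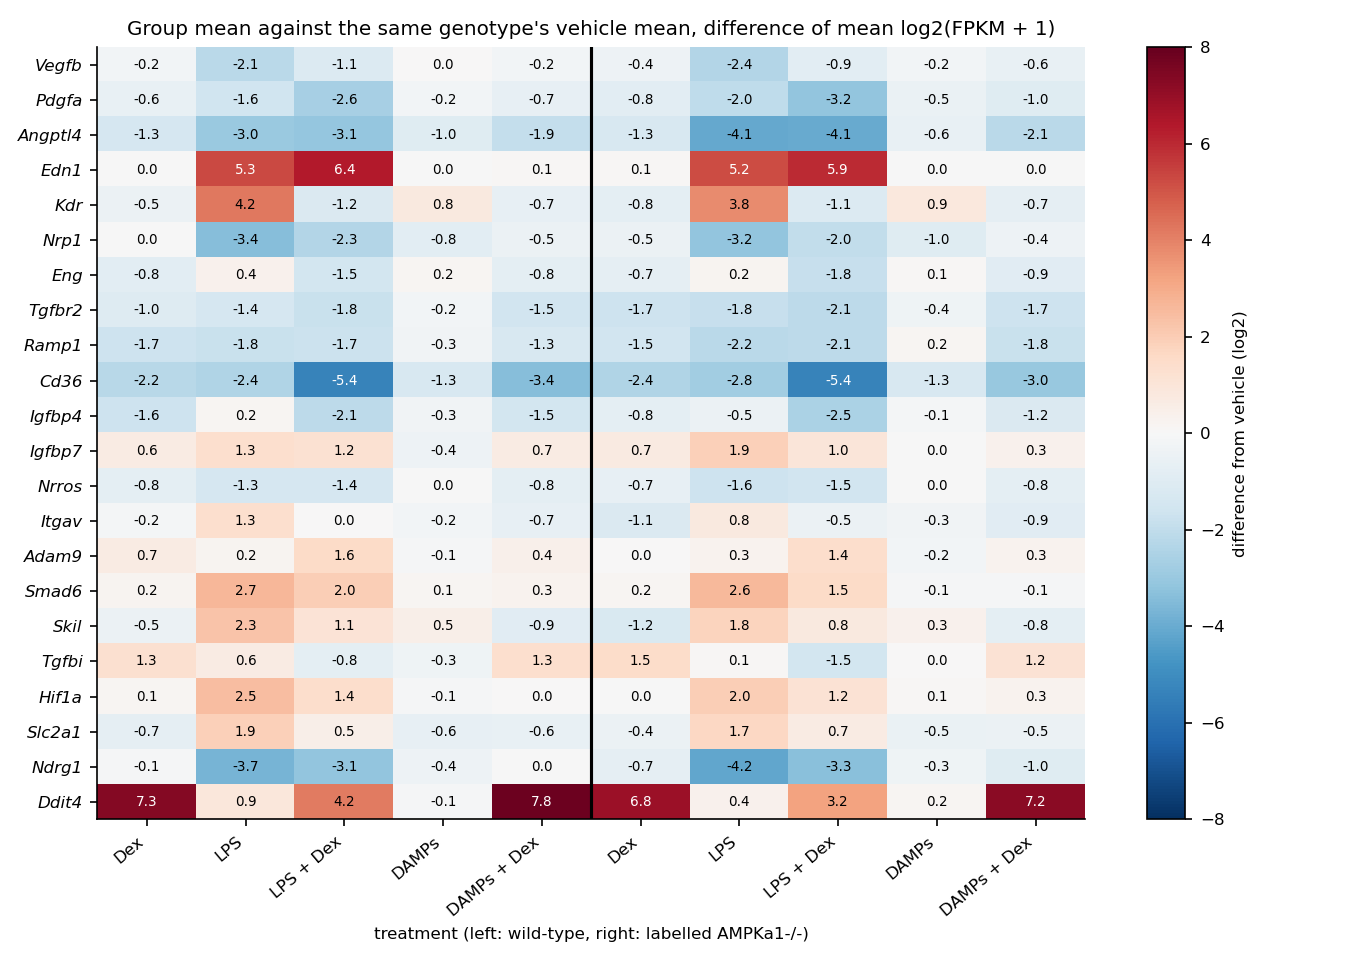
Difference from the vehicle mean of the same genotype, in mean log2(FPKM + 1), for genes named from the 5 pathway lists (down the side) in 5 treatments of each genotype (across, wild-type left of the line and AMPKa1-/- labelled right); red is higher, blue lower, and each cell prints its value. Kdr rose with LPS and not with LPS + Dex, Edn1 was high with both, and Ddit4 rose where Dex was given.

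Markers of other cell types were set beside these results. Fibroblast markers (Col1a1, Col1a2, Col3a1, Dcn, Lum and Pdgfrb) summed to between 1.43 and 18.5 FPKM in wild-type vehicle, 12.1 and 24.7 FPKM in wild-type Dex, 18.0 and 18.6 FPKM in wild-type LPS and 9.70 and 14.5 FPKM in AMPKa1-/- labelled LPS libraries, against 1.71 and 3.14 FPKM in AMPKa1-/- labelled vehicle and 3.13 and 4.66 FPKM in AMPKa1-/- labelled Dex libraries. The sum was higher with LPS in AMPKa1-/- labelled cultures and, with Dex, higher in wild-type than in AMPKa1-/- labelled cultures, Lum was at 0 in 25 of 35 libraries, and the part of such cells in the LPS changes and in the genotype differences was not tested. Of 4 tested, 2 fibroblast markers rose with LPS in each genotype, Dcn and Pdgfrb, both of which passed the filter only through the LPS and LPS + Dex libraries. Endothelial markers summed to 46.8 to 54.0 FPKM in wild-type LPS and 0.812 to 2.04 FPKM in wild-type LPS + Dex libraries, carried by Kdr and Vwf, while Cdh5 did not exceed 0.167 FPKM, Tek did not exceed 0.0917 FPKM and Cldn5 was at 0 in 31 libraries. Platelet markers summed to 12.8 to 14.2 FPKM in wild-type LPS libraries, mostly Ppbp, a chemokine gene, and Gp1bb and Gp6 were at 0 in 27 and 24 libraries. Neutrophil markers summed to 113 to 133 FPKM there, mostly Camp, an antimicrobial peptide gene, and Ly6g was at 0 in 31, Mpo in 22 and Elane in 20 libraries. In wild-type LPS + Dex libraries the neutrophil sum was 32.9 to 52.2 FPKM. Dendritic cell markers reached 110 FPKM in a wild-type LPS library through Ccr7, a migration receptor gene, while Cd209a was at 0 in 35 libraries and Flt3 did not exceed 0.444 FPKM. Lymphocyte markers summed to at most 0.910 FPKM in any library. The part of these cell types in the changes with LPS and with Dex on LPS was not tested either. Kdr and Pdgfrb count both as receptors and as markers.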

How the data were processed

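Total RNA of 35 BMDM libraries, 17 wild-type and 18 labelled AMPKa1-/-, was sequenced. The authors deposited 1 table per library with an FPKM value for each of 47069 Ensembl genes, and the deposited FPKM values were used as they were. The submitters' processing notes name Bowtie2 (version 2.2.3), TopHat2 (2.0.12), HTSeq (0.6.1) and the build GRCm38 (mm10), with no role or order. The gene lengths behind the values and the strand setting are not stated there, so reads of overlapping genes may not be separated. Symbols and coordinates came from GENCODE release M21 on GRCm38, which named 46574 of the identifiers.

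Values were log2-transformed after adding 1. Genes with a mean of at least 1 FPKM over the 35 libraries were fitted in limma 3.58.1 (R 4.3.3; empirical Bayes with trend, 2-sided) as 12 groups sharing 1 estimate of the spread, 27 comparisons were taken from the fit, and p-values were adjusted by Benjamini-Hochberg over the 11354 genes tested in each. A change was called at an adjusted p under 0.05. The study's methods count cultures from single mice as N, but the labels do not tie libraries to mice, so p-values measure the spread between libraries. The fit was tested on simulated data. The fit was repeated with 0.1 added in place of 1, without the filter or with one at 5 FPKM, after median centring or quantile normalization, without moderation, on the compared genotype or groups alone, with replicate numbers blocked, and with single libraries dropped.

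Because genes' values in a library are whole multiples of what 1 fragment is worth, fragments were recovered. They were whole within 0.02 fragments for 27412 of 27414 genes above 0 and for 11354 of 11354 tested genes. limma with voom weights on these fragments (at least 10 in at least 2 libraries) served as an alternative chosen after seeing the data.

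The factors, the lists and the tests were chosen with earlier results of these data known. The 8 factors were named in full. From each pathway list up to 3 genes with the largest change per treatment comparison, among those called in both genotypes in 1 direction, were named, and for each tested factor the 3 genes with the highest Pearson r over the 12 group means. A gene that this rule would name is not reported here.

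Replicate numbers of the labels were checked as pairs by the correlation of deviations from group means. All 3 correlations exceeded 0.1 for AMPKa1-/- labelled Dex against vehicle (0.304, 0.217 and 0.400), LPS against vehicle (0.240, 0.124 and 0.316), LPS + Dex against LPS (0.373, 0.375 and 0.356) and LPS + Dex against vehicle (0.246, 0.328 and 0.365), and not elsewhere. Wild-type LPS + Dex against LPS had pairs numbered 2 and 3 only, with correlations of 0.113 and 0.429. The labels carry the numbers but do not say that a number marks a shared mouse, culture or day, so the pairing rests on these correlations.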

Additional observations from a re-analysis of the deposited data

How the results depend on the processing

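No factor's change reversed its sign where it was called, under any setting run. Leaving out 1 library at a time, the number of called factors over both genotypes stayed at 3 to 5 for Dex against vehicle (4 as reported), 12 to 14 for LPS (13), 7 to 9 for LPS + Dex against LPS (8), 0 for DAMPs (0), 3 to 5 for DAMPs + Dex against DAMPs (4), 6 to 7 for LPS + Dex (7) and 5 to 7 for DAMPs + Dex (6) against vehicle, 5 for the Dex effect on LPS minus that on vehicle (5), 1 to 3 between genotypes within a treatment (2) and 0 for the genotype difference in the response (0). With a filter at 5 FPKM fewer factors were tested, and the numbers were 2 for Dex, 8 for LPS, 2 for the Dex effect on LPS minus that on vehicle and 1 between genotypes. Fitting only the groups compared gave 2 for DAMPs + Dex against DAMPs. In wild-type cultures Adm then fell below the filter and Igf1 was not called (adjusted p = 0.062). Between genotypes this setting gave 1, Igf1 with Dex (adjusted p = 0.034), and neither of the calls reported above. Adm with Dex fell below the filter, and Pdgfb with LPS was not called (adjusted p = 0.48). No moderation gave 1 between genotypes, as Pdgfb with LPS was not called (adjusted p = 0.06).

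With the replicate number as a block, the numbers were 5 for Dex, 14 for LPS, 11 for LPS + Dex against LPS, 0 for DAMPs, 6 for DAMPs + Dex against DAMPs, 7 for LPS + Dex and 7 for DAMPs + Dex against vehicle, 5 for the Dex effect on LPS minus that on vehicle, 2 between genotypes and 0 for the genotype difference. In the AMPKa1-/- labelled comparisons whose numbers paired, the block changed 1 call, that of Vegfa. Wild-type LPS + Dex against LPS had pairs numbered 2 and 3 only, correlated at 0.113 and 0.429. There the block gave calls for Igf1 (adjusted p = 0.0076) and Thbs1 (adjusted p = 0.018) that the main fit did not. Of the 35 libraries, 28 correlated best with their own number.

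In the limma voom fit on fragments 15 factors were called with LPS, 10 with LPS + Dex against LPS and 10 with LPS + Dex against vehicle, Hbegf among those tested; 7523 genes were called with LPS in wild-type cultures, against 6326. Counts of all genes moved by over 1.5 times in these comparisons: 3008 between genotypes with Dex (304 to 3105 without 1 library), 469 with DAMPs in AMPKa1-/- labelled cultures (267 without vehicle replicate 2), 228 with DAMPs in wild-type cultures (1 with only the groups compared, 26 without DAMPs replicate 3, 372 without replicate 2), and, over the other settings, between genotypes 49 with vehicle (19 to 92), 87 with LPS (3 to 450), 76 with LPS + Dex (7 to 146), 83 with DAMPs (11 to 107) and 120 with DAMPs + Dex (35 to 155). It held likewise for LPS + Dex against LPS in wild-type cultures, where 3871 became 2065 when only these groups were fitted. Without 1 library, the counts between genotypes were 28 to 58 with vehicle, 9 to 130 with LPS and 36 to 110 with LPS + Dex. They were 25 to 55 with DAMPs and 49 to 97 with DAMPs + Dex. Without a filter, the genotype differences called 21, 118, 75, 2 and 9 genes for Dex, LPS, LPS + Dex over LPS, DAMPs and DAMPs + Dex over DAMPs. With median centring, 46.3% of LPS calls in wild-type and 49.0% in AMPKa1-/- labelled cultures were rises, against 35.7% and 31.4%; for LPS + Dex against vehicle 50.3% and 50.9%, against 31.7% and 29.0%; between genotypes with Dex 59.1%, against 41.4%. Factors near 0 FPKM (Adm, Hbegf and Inhba outside LPS) rest on few fragments, and small changes in them were not detectable at this depth.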

Other observations

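On recovered fragments, the scale of fold changes for the low factors was wider than on log2(FPKM + 1), since no constant of 1 FPKM was added. With LPS, Inhba rose by 9.69 ± 0.94 (SE) in wild-type and 10.4 ± 1.11 in AMPKa1-/- labelled cultures on the log2 scale of the limma voom fit, Adm by 6.41 ± 0.60 and 5.84 ± 0.59, and Hbegf by 2.52 ± 0.73 and 2.44 ± 0.67. With Dex on vehicle, Adm had a change of 3.02 ± 0.66 (adjusted p = 0.0011) in wild-type and 1.43 ± 0.72 (adjusted p = 0.16) in AMPKa1-/- labelled cultures. With Dex on DAMPs its rises were 3.21 ± 0.68 (adjusted p = 0.00078) and 2.19 ± 0.73 (adjusted p = 0.031), so that on this scale the second was called as well.

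With LPS + Dex against vehicle, Adm had differences of 0.23 ± 0.18 (adjusted p = 0.29) in wild-type and 0.39 ± 0.18 (adjusted p = 0.066) in AMPKa1-/- labelled cultures. After median centring these were 0.45 (adjusted p = 0.044) and 0.68 (adjusted p = 0.0031), and on fragments the second was 1.68 (adjusted p = 0.047).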
